A study of Mus musculus with 12 samples.

Results

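A set of 7 genes from 3 oncofetal families, genes that are active in the embryo and often come back in tumours, was followed in a mouse pancreatic mesenchymal cell line in which Kitl was lowered or raised. They are Hmga1 and Hmga2, Igf2bp1, Igf2bp2 and Igf2bp3, and Lin28a and Lin28b, taken by gene name from the deposited table of read counts. These are 7 of 49671 genes in the table. Of the 7, 6 had enough counts to be tested among 15271 genes, and Lin28a did not.

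PolyA-selected RNA was sequenced from stable derivatives of ImPSC-1, a wild-type line labelled as pancreatic mesenchymal cells. The groups were shCtrl (described as PLKO-1, a hairpin vector), shKitl (sh2KitL, a hairpin against Kitl), Egfp_OE (Egfp overexpression) and Kitl_OE (Kitl overexpression), with 3 libraries each, 12 in all. Kitl encodes stem cell factor, which activates the receptor KIT. The 2 hairpin groups carry a hairpin vector and the 2 overexpression groups an expression construct, so the vector type is shared within each comparison of Kitl but differs between the control groups. The descriptions also carry a P number whose meaning is not stated: 14 to 16 in shCtrl, 13 to 15 in shKitl, 17 to 19 in Egfp_OE and 18 to 20 in Kitl_OE. Each condition is 1 stable derivative as far as the labels go, and nothing says that the 3 libraries came from separately made lines, so p-values measure the spread between these libraries, which may be technical.

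Depth was 24979742 to 33517686 counts in genes per library. Kitl itself, in counts scaled to library size (CPM), was 73.5 to 76.4 in shCtrl, 25.1 to 30.3 in shKitl and 114 to 128 in Kitl_OE, in the direction of the labels. In Egfp_OE it was 72.5, 31.8 and 72.3. Kitl was 2.76-fold lower in shKitl than in shCtrl, with no overlap of the libraries but an adjusted p of 0.121 by edgeR, and it passed in 4 of 24 alternatives, among them DESeq2 (9.88e-05) and leaving out Egfp_OE replicate 2 (0.000725). It was 2.08-fold higher in Kitl_OE than in Egfp_OE (log2 fold change 1.06, adjusted p = 0.00836), a call lost only with spike-in scaling (adjusted p = 0.242) among 24 alternatives. Without Egfp_OE replicate 2 it was 0.77 (adjusted p = 0.000854). Egfp_OE replicate 2 therefore held a Kitl level near that of shKitl, and its share of spike-in RNA was 1.35% against 0.446% to 0.684% in the other 11 libraries, so results on the members that use it are given with and without it. Of 17 mesenchymal markers, 12 or 13 had a mean of at least 1 TPM (transcript level corrected for gene length) in each group. Of 14 markers of pancreatic epithelium, 3 reached that level in each group, Sox9, Cela1 and Krt19, while Amy2b, Ins2 and Pdx1 were at 0 in every group. Of 6 endothelial markers only Kdr reached it, and of 8 blood cell markers only Cd68. Of 10 mesothelial markers, 3 reached it in shCtrl, 6 in shKitl, 2 in Egfp_OE and 6 in Kitl_OE, with Msln at a mean of 119 TPM in shCtrl.

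HMGA proteins are small chromatin proteins that bind AT-rich DNA and bend it. IGF2BP proteins bind messenger RNAs, many of them marked by m6A (methylated adenosine), and affect their stability, transport and translation. LIN28A and LIN28B bind precursors of the let-7 microRNAs and block their maturation, while mature let-7 in turn represses Hmga2, Lin28b, Lin28a and the Igf2bp genes through sites in their 3′ untranslated regions (UTRs). The axis is high in the embryo, falls as tissues mature, and is known for its return in tumours, the pancreas included.

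Sequence that the members share is shown first, because let-7 pairing is what joins the 3 families. Mature let-7 microRNAs from RefSeq (GRCm38.p6) are written 5′ to 3′ with the seed, bases 2 to 8, in capitals. The seed is GAGGUAG in 10 of the 11 mature names, miR-98 among them, and GAGGUAU in let-7j.
let-7a-5p: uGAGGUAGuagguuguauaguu
let-7b-5p: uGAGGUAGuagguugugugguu
let-7g-5p: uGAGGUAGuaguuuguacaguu
let-7i-5p: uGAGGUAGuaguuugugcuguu
miR-98-5p: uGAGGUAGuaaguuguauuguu

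All 7 members held at least 1 match to this seed in the longest annotated 3′ UTR (GENCODE M21, GRCm38), against 14.3% of 21832 coding genes. A match was counted as CTACCTC, as TACCTCA, or as both overlapping in an 8-base match, on the transcribed strand only. An 8-base match was present in 6 members, all but Hmga1, against 2.95% of the coding genes. The members are textbook let-7 targets, so this describes the sequences and is no finding about regulation in these cells. Longer UTRs hold more matches by their length alone, and the median length over all genes was 906.5 bases.

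Hmga2 had the most, 7 matches in a UTR of 3014 bases, a number reached by 0.023% of the coding genes. They are shown in order along the UTR, with the match in capitals and on the minus strand of GRCm38.
Hmga2 site 1, chr10:120364224-120364246, 8 bases: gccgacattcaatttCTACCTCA
Hmga2 site 2, chr10:120363140-120363162: agaccgcagtaccactTACCTCA
Hmga2 site 3, chr10:120362988-120363010: tccccactcctcaataCTACCTC
Hmga2 site 4, chr10:120362599-120362621: taagtctccaagtttgTACCTCA
Hmga2 site 5, chr10:120362550-120362572: cctgatttgcaaggaaCTACCTC
Hmga2 site 6, chr10:120361692-120361714: caatcaaaacacactaCTACCTC
Hmga2 site 7, chr10:120361672-120361694: ctcttaagtcccagtaTACCTCA

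Lin28b held 5 matches in a UTR of 4445 bases. Only the first, near the start of the UTR, pairs over 8 bases, and the sites lie on the minus strand of GRCm38.
Lin28b site 1, chr10:45381022-45381044, 8 bases: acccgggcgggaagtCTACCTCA
Lin28b site 2, chr10:45378649-45378671: atatacttgttagtaaCTACCTC
Lin28b site 3, chr10:45378477-45378499: tgtttacagcacatggCTACCTC
Lin28b site 4, chr10:45377061-45377083: gaaatgatggcaccgaCTACCTC
Lin28b site 5, chr10:45376871-45376893: cattcagtgtttagatTACCTCA

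Igf2bp1 also held 5 matches, in the longest UTR of the group (6337 bases), and 3 of them were 8-base matches. Igf2bp2 held 2 matches, Igf2bp3 held 1 and Hmga1 held 1. Lin28a held 2, both of 8 bases. The 8-base matches of the IGF2BP genes (minus strand) and the single 7-base match of Hmga1 (plus strand) are set side by side. The bases in capitals are alike because the search required them, and the bases around them were not compared.
Igf2bp1 site 1, chr11:95961778-95961800: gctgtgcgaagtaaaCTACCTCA
Igf2bp1 site 3, chr11:95959357-95959379: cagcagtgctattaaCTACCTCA
Igf2bp1 site 4, chr11:95958763-95958785: gtataaatggatgaaCTACCTCA
Igf2bp2 site 1, chr16:22059473-22059495: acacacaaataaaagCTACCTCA
Igf2bp3 site 1, chr6:49086787-49086809: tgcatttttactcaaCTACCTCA
Hmga1 site 1, chr17:27563276-27563298: ctcctctgttcacaaaCTACCTC

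**Figure D1:**
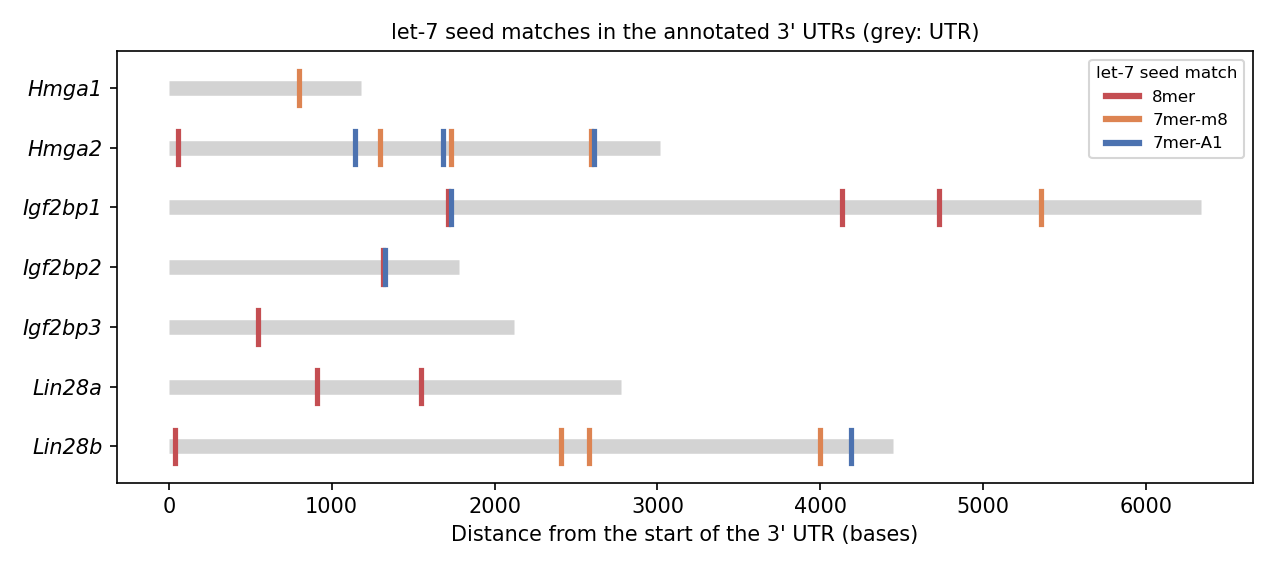
Position of each let-7 seed match along the longest annotated 3′ UTR of the 7 genes, in bases from the UTR start. Grey bars are the UTRs and coloured ticks the matches by type. Hmga2 carries 7 ticks spread over 3014 bases, while Hmga1 and Igf2bp3 carry 1 each.

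All 6 tested genes had their lowest group mean in Kitl_OE, and the share of all genes for which this held was not counted. For Igf2bp1 the Kitl_OE and shKitl means were nearly equal (44.99 and 45.48 CPM, adjusted p = 0.97 by edgeR). Against Egfp_OE, 5 of the 6 fell past an adjusted p of 0.05 and none rose, where 18.9% of all genes tested fell and 34.3% changed in either direction. The 3 Kitl_OE libraries lay under the 3 Egfp_OE libraries for all 6, which held for 25.6% of all genes tested. The median log2 fold change of the 6 was -0.876, against -0.0697 over all genes tested. With the P number as a covariate 5 were again called, and 2 (Hmga2 and Lin28b) with spike-in scaling or without Kitl_OE replicate 1. These are bulk RNA values, in which fewer cells with a transcript and less of it per cell cannot be told apart. Markers of other cell types moved with this comparison: the summed TPM of 10 mesothelial markers was 20.3 to 30.8 in Egfp_OE and 397 to 667 in Kitl_OE. The hairpin groups lay between, at 110 to 135 in shCtrl and 152 to 235 in shKitl. In Kitl_OE 6 of the 10 had a mean of at least 1 TPM, and Wt1, Lrrn4, Krt5 and Muc16 stayed under 0.2 TPM. The summed TPM of 17 mesenchymal markers was 3620 to 4700 in Egfp_OE and 16700 to 17700 in Kitl_OE. Acta2 (mean 236 and 4490 TPM) and Col1a1 (791 and 4600) made up much of that sum, while Pdgfra (log2 fold change -3.68, adjusted p = 0.000412), Thy1 (-2.49, 0.000481) and Rgs5 (-3.54, 0.00632) fell. The sum of the 14 epithelial markers was 57.4 to 81.5 TPM in Egfp_OE and 10.5 to 22.1 in Kitl_OE. Most of the Egfp_OE sum was Sox9, a factor of ducts and of chondrocytes. The Sox9 mean was 46.2 TPM in Egfp_OE and 1.91 in Kitl_OE (log2 fold change -4.61, adjusted p = 2.13e-06). Cela1 fell too, from a mean of 17.1 to 5.23 TPM (-1.78, adjusted p = 0.00514). Krt19 was at 4.47 and 7.98 TPM and did not pass (0.79, adjusted p = 0.403). Endothelial Kdr was at 1.14 and 7.42 TPM. The sum of 5 Schwann cell markers was 4.58 to 5.86 and 37.3 to 46.7, with Sox10 at 0.0132 TPM in Kitl_OE. Their part in the results on Kitl_OE was not tested.

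**Figure D2:**
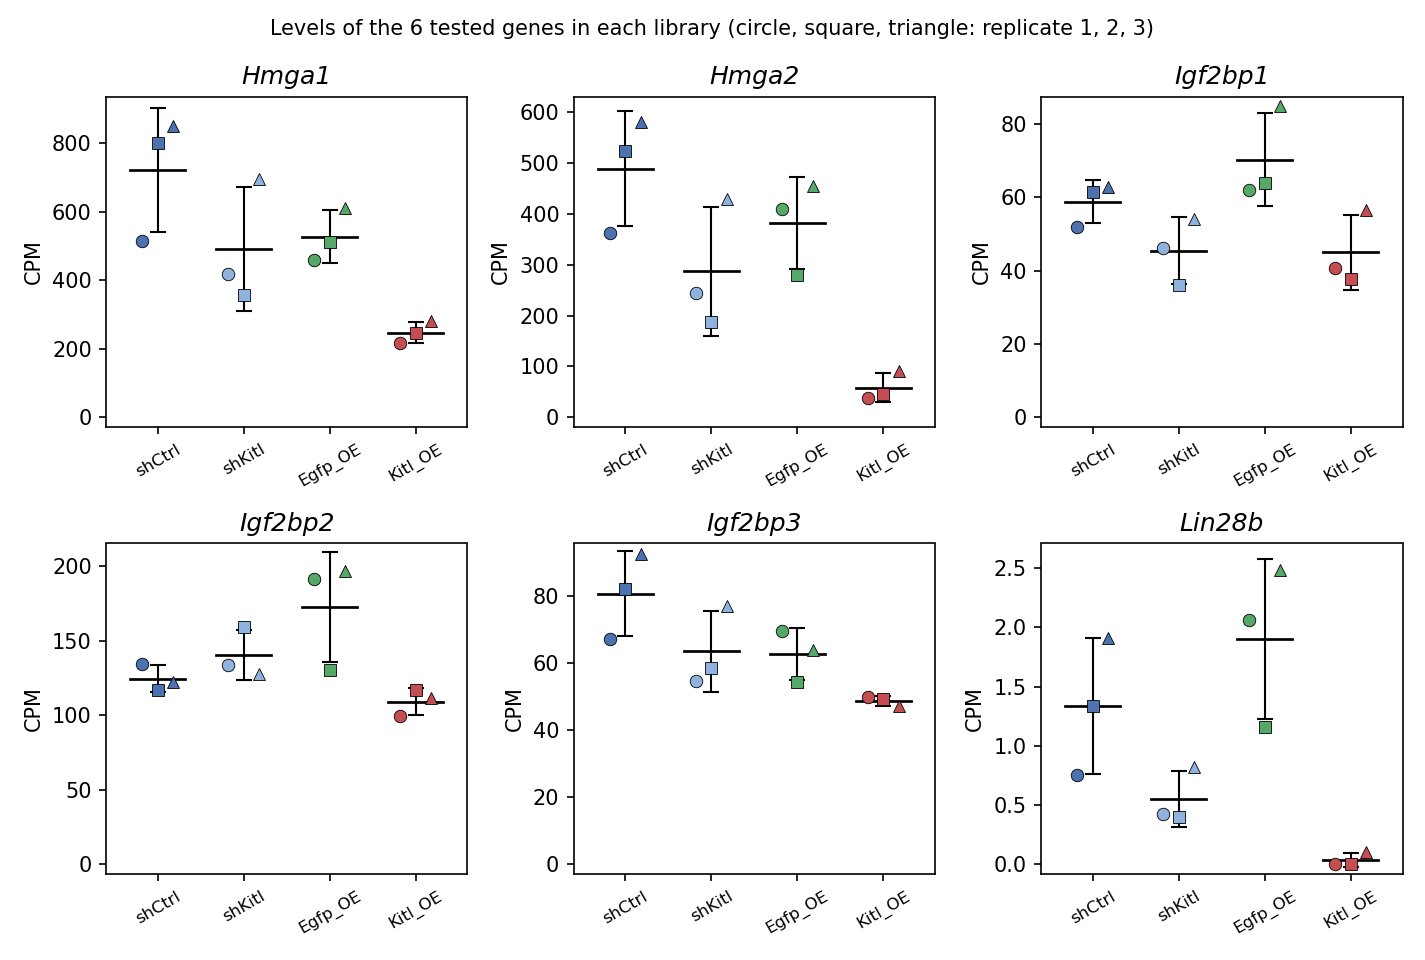
CPM of the 6 tested genes in each of the 12 libraries, by group. Symbols are single libraries, the wide line is the group mean and the bar 1 SD. For Hmga2 the 3 Kitl_OE libraries lie at 38.8 to 90.6 CPM and all others at 187 or above.

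Hmga2 (GRCm38 chr10:120361275-120476469, minus strand) encodes the embryonic AT-hook protein of the pair and showed the largest fall of the well-expressed members. Its level was 362, 523 and 580 CPM in the 3 shCtrl libraries, and 244, 187 and 429 CPM in shKitl. In Egfp_OE it was 409, 281 and 455 CPM, and in Kitl_OE 38.8, 46.5 and 90.6 CPM. Every Kitl_OE library was under the lowest of the other 9, while the other 3 groups overlapped. The fall from Egfp_OE to Kitl_OE was 6.51-fold (log2 fold change -2.70, SE 0.393, adjusted p = 0.000445 in the edgeR fit, n = 3 per group). Without Egfp_OE replicate 2 the log2 fold change was -2.87 (adjusted p = 0.000693).

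In shKitl the Hmga2 mean was 287 ± 126 CPM (SD, n = 3) against 488 ± 113 in shCtrl, a log2 difference of -0.77 with a 95% interval from -1.58 to 0.04 and an adjusted p of 0.335. Lowering and raising Kitl thus gave estimates of the same sign for Hmga2, but only the second passed the test. The difference of the 2 effects was tested in its own contrast, which 3 of the 6 members passed, all negative (14% of all genes in either direction, 9.88% negative). For Hmga2 it was past the threshold (log2 difference -1.93, SE 0.527, adjusted p = 0.0317), and -2.09 without Egfp_OE replicate 2 (0.0278). That call was lost in 11 of 23 alternatives, among them spike-in scaling (adjusted p = 0.225), both TPM settings and leaving out Kitl_OE replicate 1 (adjusted p = 0.0937) or 2 (0.0848). It was also lost without any 1 of the shCtrl libraries, shKitl replicate 3, or Egfp_OE replicate 1 or 3, at adjusted p-values of 0.0545 to 0.0754.

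Hmga1 (chr17:27556497-27563674, plus strand), the HMGA gene that dividing cells keep, was far more abundant per length. Its level was 513, 799 and 848 CPM in shCtrl. It was 417, 358 and 696 CPM in shKitl, 459, 511 and 610 CPM in Egfp_OE, and 217, 245 and 280 CPM in Kitl_OE. Kitl_OE was again under every other library. The fall from Egfp_OE was 2.13-fold (log2 fold change -1.09, SE 0.268, adjusted p = 0.00927). Without Egfp_OE replicate 2 it was -1.10 (adjusted p = 0.016). It lost the call with spike-in scaling (adjusted p = 0.157) and without Kitl_OE replicate 1 (0.0553). The knockdown estimate was -0.55 with an interval from -1.14 to 0.03.

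In TPM, which can be set against each other between genes, Hmga2 made up 16.7% ± 0.523 of the HMGA total in shCtrl (SD, n = 3), 14.4% ± 1.04 in shKitl, 17.5% ± 3.45 in Egfp_OE and 6.31% ± 2.05 in Kitl_OE. The highest Kitl_OE share was 8.67% and the lowest share elsewhere 13.3%. The summed HMGA level was 933 ± 284 TPM in Egfp_OE and 384 ± 77.2 TPM in Kitl_OE. Both genes were lower in Kitl_OE, and Hmga2 by more. Reads of Hmga1 are uncertain in part, because Hmga1b is a near-identical copy (186 to 511 counts a group), which also fell in Kitl_OE (log2 fold change -0.96, adjusted p = 0.0346). AI413582, a coding gene on the opposite strand that overlaps Hmga1, held 10872 counts over the 12 libraries, and whether strand was used in the counting is not stated, so their reads cannot be told apart.

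**Figure D3:**
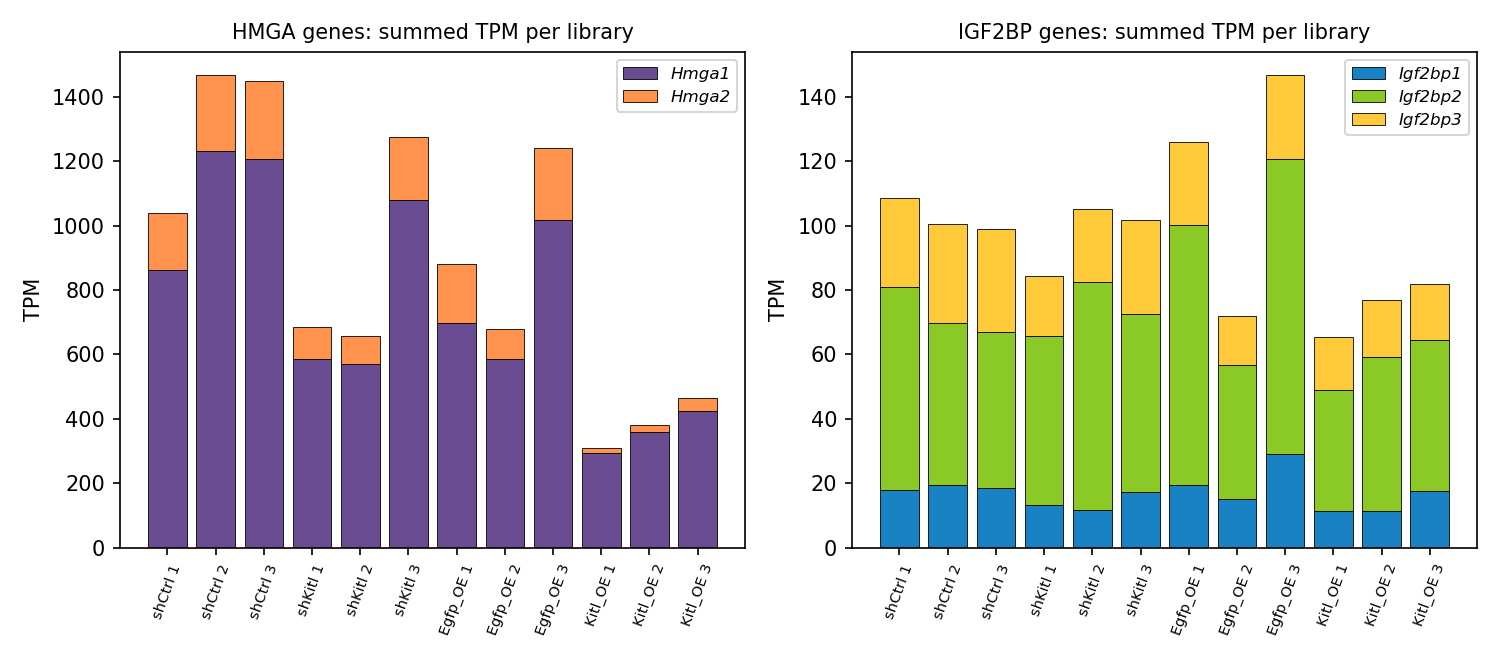
Stacked TPM of the HMGA genes (left) and IGF2BP genes (right) in each library. The orange Hmga2 part is a mean of 6.31% of the HMGA bar in Kitl_OE and 17.5% in Egfp_OE, while Igf2bp2 is the largest part of the IGF2BP bar in every group, at mean shares from 52.4% to 61.5%.

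Lin28b (chr10:45376620-45486395, minus strand), which binds let-7 precursors and blocks their processing, was rare, and at or near 0 counts in Kitl_OE. The counts were 23, 34 and 45 in shCtrl, 12, 11 and 22 in shKitl, and 72, 29 and 74 in Egfp_OE. Kitl_OE had 0, 0 and 3 counts. The 3 Kitl_OE libraries were therefore below all 9 others, at 0.102 CPM or less. Summed over the group and scaled by library size, Egfp_OE held 53.5 times as many Lin28b counts as Kitl_OE, 175 against 3, with an exact 95% interval of 18 to 262 that covers counting error only. edgeR's test gave an adjusted p of 0.00045 (log2 fold change -5.56, SE 0.811, a value that depends on the prior count), and -5.80 without Egfp_OE replicate 2 (adjusted p = 0.000436).

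In the knockdown Lin28b went from 102 counts in shCtrl to 45 in shKitl, with 22 in the highest shKitl library and 23 in the lowest shCtrl library, but the CPM ranges overlapped (0.401 to 0.822 against 0.757 to 1.91). The log2 fold change was -1.27, the interval -2.55 to 0.02 and the adjusted p 0.321. The contrast of the 2 effects passed for Lin28b at -4.29 (SE 1.03, adjusted p = 0.018), and at -4.51 without Egfp_OE replicate 2 (0.0129). It lost the call in 5 of 22 alternatives: spike-in scaling, both TPM settings, and without Kitl_OE replicate 1 (adjusted p = 0.0546) or 2 (0.0506). The level was low in all groups: even Egfp_OE had a mean of 0.629 ± 0.313 TPM.

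Lin28a (chr4:134003330-134018841, minus strand), the paralog typical of pluripotent cells, had 1 count in all, in Kitl_OE replicate 3. In the other 11 libraries it was 0, which allows up to 0.0859 to 0.127 CPM, taking 3 counts as the limit for a count of 0. No test was possible. Among 12 markers of pluripotent and germ cells, 10 were too low to test. Sox2, a pluripotency and neural factor, fell from 4.66 ± 1.25 CPM in Egfp_OE to 0.0975 ± 0.0221 CPM in Kitl_OE (n = 3 each, log2 fold change -5.52, SE 0.467, adjusted p = 1.49e-05). Nanog, the other marker tested, was at -0.04 (adjusted p = 0.972).

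The IGF2BP genes changed less. Igf2bp2 (chr16:22059009-22163299, minus strand), the member kept in many adult tissues, was the most abundant of the 3 per length in every group. The shCtrl libraries had 134, 117 and 122 CPM and the shKitl libraries 134, 159 and 128. Egfp_OE had 191, 130 and 197 CPM, and Kitl_OE 99.4, 117 and 112. Egfp_OE was the highest group and its replicate 2 the lowest library in it, and Kitl_OE overlapped with shCtrl. The fall from Egfp_OE to Kitl_OE was 1.58-fold (log2 fold change -0.66, SE 0.174, adjusted p = 0.0129), and -0.82 without Egfp_OE replicate 2 (adjusted p = 0.000478). It was lost in 4 of 24 alternatives, namely spike-in scaling, both TPM settings and leaving out Kitl_OE replicate 1.

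Igf2bp2 was the one tested member that was higher in shKitl than in shCtrl, at a log2 fold change of 0.17 (interval -0.21 to 0.55, adjusted p = 0.647). The contrast of the 2 effects was -0.83 (SE 0.246, adjusted p = 0.0436), a call lost in 18 of 23 alternatives, among them each library left out (adjusted p = 0.0502 to 0.138) except Egfp_OE replicate 2, without which it was -0.96 (0.00252). Against shCtrl, Kitl_OE differed by -0.19 only (adjusted p = 0.433).

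Igf2bp1 (chr11:95957163-96005940, minus strand), an embryonic member, had 52, 61.5 and 62.9 CPM in the shCtrl libraries and 46.2, 36.1 and 54.1 in shKitl. Egfp_OE had 61.9, 64 and 85 CPM, and Kitl_OE 40.7, 37.7 and 56.6. Its Kitl_OE libraries were below those of Egfp_OE but overlapped with shKitl and shCtrl. The fall of 1.56-fold from Egfp_OE (log2 fold change -0.64, SE 0.21, adjusted p = 0.0337) was lost in 11 of 24 alternatives. Without Egfp_OE replicate 3 it was -0.48 (adjusted p = 0.12), and it was also lost without shCtrl replicate 2 or 3, shKitl replicate 1, or Kitl_OE replicate 1 or 2 (adjusted p = 0.0519 to 0.147). Without Egfp_OE replicate 2 it was -0.69 (adjusted p = 0.0339).

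Igf2bp3 (chr6:49085223-49214957, minus strand), the other embryonic member, had 67.2, 82 and 92.4 CPM in the shCtrl libraries and 54.7, 58.5 and 77.1 in shKitl. Egfp_OE had 69.6, 54.5 and 63.8 CPM, and Kitl_OE 49.7, 49.3 and 47.1. The 3 Kitl_OE libraries lay close together, the highest 1.06 times the lowest, and below all 9 others. Igf2bp3 did not pass against Egfp_OE (log2 fold change -0.36, interval -0.75 to 0.02, adjusted p = 0.129, and -0.44 with 0.0664 without Egfp_OE replicate 2) but did against shCtrl (-0.73, SE 0.175, adjusted p = 0.0091). Its reads overlap Malsu1, a gene on the opposite strand with 4205 counts over the 12 libraries. The summed IGF2BP level was 115 ± 38.7 TPM in Egfp_OE and 74.7 ± 8.47 TPM in Kitl_OE, with Igf2bp2 at 61.5% ± 3.26 and 59% ± 2.76 of it.

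**Figure D4:**
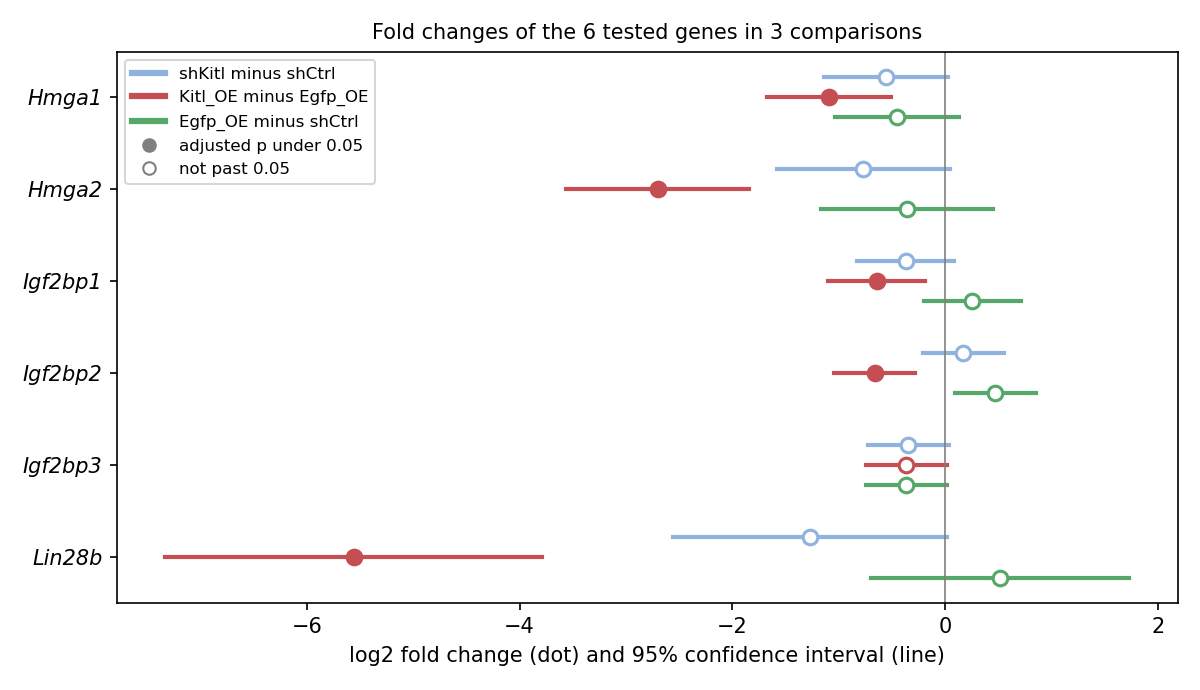
log2 fold changes of the 6 tested genes in 3 comparisons, with 95% intervals. Filled dots passed an adjusted p of 0.05. Only Kitl_OE minus Egfp_OE has filled dots, for 5 genes, from -0.64 for Igf2bp1 to -5.56 for Lin28b.

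In the knockdown none of the 6 tested members passed edgeR's test, nor did any of the 15271 genes (0%). At an unadjusted p under 0.05 there were 0 members and 2417 genes, and DESeq2 called 452 genes and 0 members. Of the 6 estimates, 5 were negative, from -0.34 to -1.27, and the libraries of shKitl and shCtrl overlapped for all 6, where 19.7% of all genes tested did not overlap. Within its group, shKitl replicate 3 was the highest library for 5 of 6 genes, all but Igf2bp2. For the same 5, shCtrl replicate 1 was the lowest of its group. Those 2 libraries have the P numbers 15 and 14. How often such an order held over all genes was not counted, and genes of the same libraries are not replicates of each other.

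Igf2bp2 went the other way: it was highest in shCtrl replicate 1 and lowest in shKitl replicate 3. In Egfp_OE the pattern differed. There replicate 2 was lowest for Hmga2, Igf2bp2, Igf2bp3 and Lin28b, but not for Hmga1 or Igf2bp1.

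The 2 control groups, Egfp_OE and shCtrl, did not differ past the threshold for any of the 6 members by edgeR (1.25% of all genes passed). DESeq2 called 0 members. At an unadjusted p under 0.05 in edgeR there was 1 member, beside 3721 of the 15271 genes tested. That 1 was Igf2bp2, at 0.47 (SE 0.174, adjusted p = 0.14), and it passed when Egfp_OE replicate 2 was left out (0.64, adjusted p = 0.0363). Vector, history of the line and P number cannot be told apart here. Because the control groups were not the same, the order of the levels is given over all 4 groups. For Hmga2 it was shCtrl, Egfp_OE, shKitl and Kitl_OE, and only the last step passed (adjusted p = 0.563, 0.514 and 0.00174 in turn).

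Hmga1 had the same order, with only the last step past the threshold (0.309, 0.841 and 0.023). For Lin28b the order was Egfp_OE, shCtrl, shKitl and Kitl_OE, and again only the last step passed (0.574, 0.321 and 0.00917). No step between neighbours passed for the 3 IGF2BP genes. Kitl_OE was lower than shKitl past the threshold in 3 of 6 members (13.4% of all genes tested) and lower than shCtrl in 4 of 6 (16.5%), Igf2bp3 being the fourth. The comparisons share the Kitl_OE libraries. None of the 6 differed between Egfp_OE and shKitl by edgeR (6.39% of all genes in either direction). Igf2bp1 and Lin28b were at an unadjusted p under 0.05 (adjusted p = 0.0921 and 0.0871), as were 3863 of the 15271 genes tested.

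Related genes were counted in Kitl_OE against Egfp_OE, where 18.9% of all genes tested fell and 15.4% rose. Over the lists, 45 genes were called with all libraries, and without Egfp_OE replicate 2 all 45 kept their direction and 43 their call, the others being Zc3h13 and Hnrnpc. Of 22 tested genes for let-7 processing and LIN28 partners, 4 fell and none rose, with a median log2 fold change of 0.0425, a share of lower genes near the 18.9% over all genes. Msi1, an RNA-binding partner of LIN28, fell from 3.25 ± 0.687 to 0.355 ± 0.119 CPM (-3.18, adjusted p = 0.000337). Trim25, which helps LIN28A recruit the uridylation of let-7 precursors, fell at -1.47 (adjusted p = 0.00601), Syncrip at -0.76 and Papd4, a poly(A) polymerase, at -0.50. Without Egfp_OE replicate 2 the counts were 1 higher and 6 lower, and 0 and 2 without Egfp_OE replicate 1 or 3 or any 1 Kitl_OE library. With spike-in scaling 1 fell.

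Of 23 tested let-7 targets outside the 3 families, 5 rose and 4 fell, with a median of 0.252, beside 15.4% and 18.9% of all genes. Ccnd2, a G1 cyclin, rose from 133 ± 16.4 to 652 ± 61.3 CPM (log2 fold change 2.29, SE 0.209, adjusted p = 2.35e-05). Fign rose by 1.70 and Arid3b by 1.37 on the log2 scale, while Igdcc4 fell by 4.10. The list gave 6 higher and 5 lower without Egfp_OE replicate 2. With spike-in scaling 2 rose and 1 fell. Without Kitl_OE replicate 1 the counts were 3 and 1, and without replicate 2 they were 4 and 1.

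Genes were also counted by their number of let-7 matches. Among tested genes outside the 7, 20.8% of 418 with 2 or more let-7 matches fell in Kitl_OE, 20% of 1819 with 1 match, and 19.9% of 10956 with none. The medians were -0.0642, -0.0558 and -0.0554. Of 83 genes with 3 or more matches, 16.9% fell, at a median of -0.00357. With 1 or more 8-base matches 19.6% of 490 fell (median -0.0594). With 2 or more 8-base matches 13.6% of 22 fell and 27.3% rose (median 0.158). These classes overlap. Mature let-7 was not measured, as the libraries are polyA-selected. Of 3 let-7 host genes tested, 1 fell and none rose, where 18.9% of all genes tested fell. It was Wdr82, which carries let-7g, from 123 ± 22.7 to 52.8 ± 3.27 CPM (-1.22, SE 0.169, adjusted p = 0.000328). Huwe1, host of let-7f-2 and miR-98, was at 0.36 (adjusted p = 0.531). Mir99ahg was at -0.87 (adjusted p = 0.293), and at 0.47 without Egfp_OE replicate 2 (adjusted p = 0.34).

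For the other HMG chromatin proteins, 2 of 14 tested rose (15.4% of all genes) and 6 fell (18.9% of all genes) in Kitl_OE, with a median of -0.391, and 3 rose and 7 fell without Egfp_OE replicate 2. Hmgn3, a nucleosome-binding protein, fell from 67.4 ± 33.1 to 9.43 ± 0.876 CPM (-2.84, adjusted p = 6.29e-05). Hmgn2 fell by 1.12 and Hmgb2 by 1.04, and Tox, an HMG-box factor of T cells, rose by 2.39. With spike-in scaling 2 rose and 1 fell. Of 10 genes linked to HMGA in the cell cycle and growth, 2 rose and 3 fell, with all libraries and without Egfp_OE replicate 2 (15.4% and 18.9% of all genes): Plag1, a transcription factor that HMGA2 can activate, fell by 4.34 from 6.99 ± 5.17 CPM, the cyclins Ccnb2 and Ccna2 fell by 1.48 and 1.21, and the inhibitors Cdkn1a and Cdkn2b rose by 1.8 and 1.35. Cdkn2a, another inhibitor on the list, had a negative estimate that did not pass (-1.24, adjusted p = 0.0615, and -0.332 without Egfp_OE replicate 2). Without Kitl_OE replicate 1 or 2, 1 of the 10 rose and 2 fell.

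Of 15 tested RNAs and proteins that IGF2BPs bind, 2 rose and 4 fell (15.4% and 18.9% of all genes), with a median of -0.1, and 2 and 6 without Egfp_OE replicate 2. Igf2, the growth factor that gave the family its name, rose from 0.369 ± 0.0326 to 5.76 ± 2.53 CPM (3.95, adjusted p = 0.0142). Its knockdown estimate was also positive but did not pass (4.05, adjusted p = 0.192), at 6.22 ± 5.95 CPM in shKitl and 0.36 ± 0.362 in shCtrl. H19, the imprinted noncoding RNA beside Igf2, fell in Kitl_OE from 28.3 ± 39.8 to 0.154 ± 0.0809 CPM (-7.45, adjusted p = 0.00219). The SD of H19 in Egfp_OE is larger than its mean, so its libraries differ widely, and without Egfp_OE replicate 2 the log2 fold change was -5.03 (adjusted p = 0.0024). Mapk4 rose by 6.25 and Cd44 fell by 1.18. With spike-in scaling, or without Kitl_OE replicate 1 or 2, 2 rose and 1 fell. Of 19 tested genes of the m6A machinery, 2 rose and 4 fell (15.4% and 18.9% of all genes). The largest changes among those called were Rbm15b, a writer subunit (-0.91), the demethylase Fto (0.82), Hnrnpc (-0.61) and the reader Ythdf1 (0.54). Without Egfp_OE replicate 2 the counts were the same but the genes were not. Zc3h13 and Hnrnpc lost the call (adjusted p = 0.0803 and 0.132), and Virma and Ythdf3, both lower, gained it (0.0102 and 0.0146). None of these 19 passed with spike-in scaling, and 2 rose and 1 fell without shCtrl replicate 2 or 3, Egfp_OE replicate 3, or Kitl_OE replicate 1 or 2.

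Of 12 tested other oncofetal and fetal growth genes, 8 fell and 2 rose in Kitl_OE (18.9% and 15.4% of all genes), with a median of -3.23, and the counts were the same without Egfp_OE replicate 2. Dlk1, a fetal surface protein that marks progenitors, fell from 484 ± 188 to 2.16 ± 0.111 CPM (-7.81, SE 0.321, adjusted p = 2.33e-07). Meg3, the noncoding RNA of the same imprinted locus, fell by 6.53 and Cdkn1c, an imprinted inhibitor of the cell cycle, by 6.3, the latter from 89.6 ± 106 CPM. They were -5.83 and -4.63 without Egfp_OE replicate 2. Igf2, H19 and Plag1 stand in this list and in one of the lists above, so the lists are not separate. In the knockdown none of the genes on any of these lists passed edgeR's test (0% of all genes). Between the control groups, Dlk1 was higher in Egfp_OE (1.58, adjusted p = 0.0247) and Sox2 lower (-2.21, adjusted p = 0.0247).

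**Figure D5:**
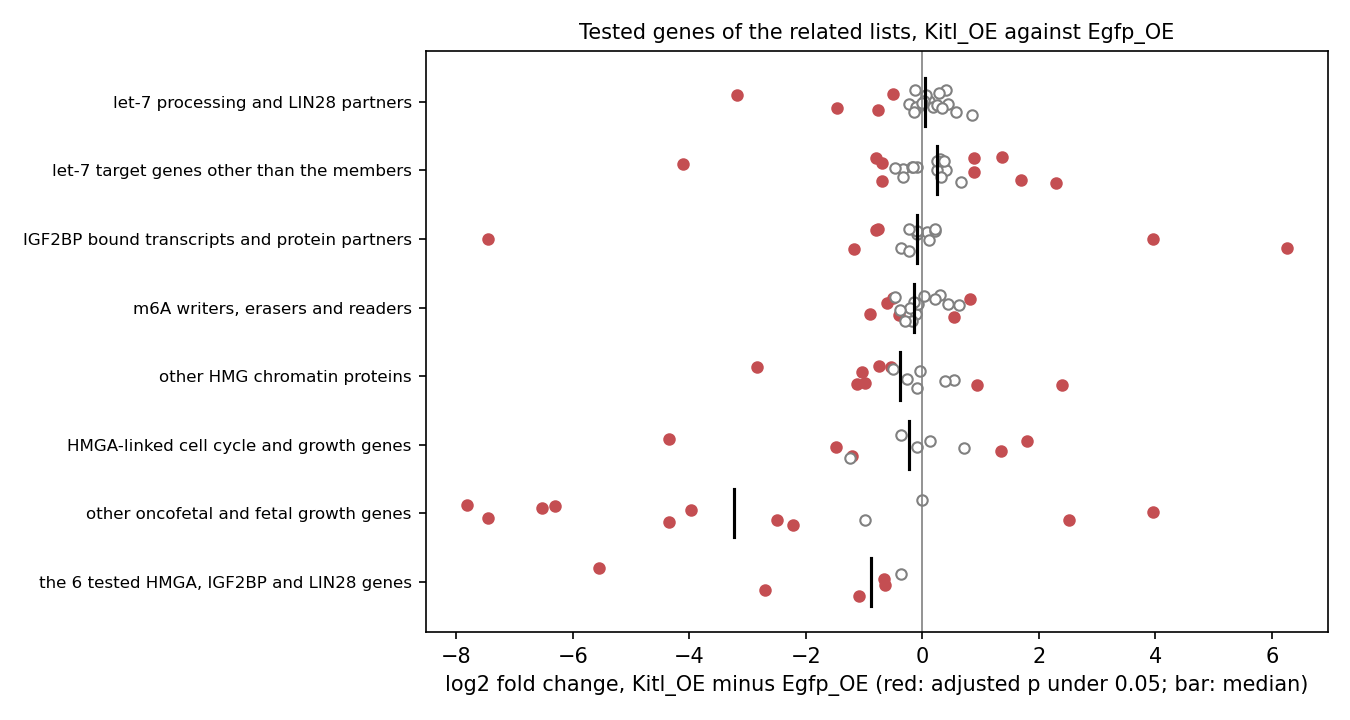
log2 fold change, Kitl_OE minus Egfp_OE, of the tested genes in each related list with 10 or more of them, and of the 6 tested HMGA, IGF2BP and LIN28 genes. Filled dots passed an adjusted p of 0.05 and the bar is the median, which is -3.23 for the other oncofetal genes and 0.252 for the other let-7 targets.

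The genes whose pattern over the 12 libraries was most like each member were found by the root mean square difference of centred log2(CPM + 1), among 10233 genes. Hmga2 was nearest to Ptprn, a membrane protein of secretory vesicles (0.247, where the SD of Hmga2 itself is 1.34), then Tdrkh (0.302) and Neto2 (0.331). Hmga1 was nearest to Ccdc137 (0.105), Anp32e, a histone chaperone (0.144), and Cct3, a chaperonin subunit (0.153). Igf2bp3 was nearest to Mfsd14a and Clptm1l (both 0.0713) and Rfc1 (0.0873). For Igf2bp1 they were Zik1, Csrnp2 and Ppp5c, at 0.117 to 0.139, and for Igf2bp2 Crtc3, Ube4a and Usp19, at 0.12 to 0.123. The SD of the member itself was 0.648 for Hmga1, 0.354 for Igf2bp1, 0.298 for Igf2bp2 and 0.308 for Igf2bp3. A small distance thus means less for the IGF2BP genes, which varied little, than for Hmga2. No member was among the 3 nearest genes of another. Lin28a and Lin28b could not be, since candidates needed a mean of at least 5 CPM. Genes whose changes are unlike in size also lie far apart by this measure. Lin28b, with a mean of 0.955 CPM, was under the level of 1 CPM set for this search.

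The promoters of Hmga2 and Lin28b, the 2 members with the largest falls, are shown because both fell in Kitl_OE. Each is the RefSeq stretch (GRCm38.p6) from 250 bases before to 50 after the start, minus strand, with matches to 6 motifs in capitals, searched on both strands: the E-box CACGTG, the ZEB and SNAI type of E-box CACCTG, the GC box GGGCGG, the CCAAT box, the TATA box TATAAA and the AP-1 site TGANTCA. The RefSeq start of Lin28b lies inside the GENCODE gene.
Hmga2 promoter, chr10:120476420-120476719: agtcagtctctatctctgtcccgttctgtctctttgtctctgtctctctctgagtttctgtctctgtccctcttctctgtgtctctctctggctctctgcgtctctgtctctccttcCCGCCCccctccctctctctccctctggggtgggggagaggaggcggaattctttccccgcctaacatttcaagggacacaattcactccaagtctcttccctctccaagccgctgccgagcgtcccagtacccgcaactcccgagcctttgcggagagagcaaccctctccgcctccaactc
Lin28b promoter, chr10:45470152-45470451: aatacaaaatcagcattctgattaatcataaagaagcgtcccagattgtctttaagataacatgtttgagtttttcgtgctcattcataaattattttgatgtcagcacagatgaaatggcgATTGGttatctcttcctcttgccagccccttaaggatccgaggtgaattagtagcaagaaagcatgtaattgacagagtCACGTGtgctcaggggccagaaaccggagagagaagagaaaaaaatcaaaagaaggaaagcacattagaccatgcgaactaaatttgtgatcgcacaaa

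Hmga2 held 1 GC box (GGGCGG, in 35.7% of 32851 promoters of this length) and none of the others. Lin28b held 1 E-box (CACGTG, in 7.15%) and 1 CCAAT box (37.4%) and no GC box. They shared none of the 6 motifs, and their GC content was 57.7% and 39%. Igf2bp3, whose change was small, held 2 CACGTG matches. A match describes letters and not binding.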

How the data were processed

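The tables used were deposited by the authors for the same 12 libraries: raw counts of reads for each gene, and TPM values. Per the submitters' processing notes, STAR 2.5.2b and featureCounts of Subread 1.5.2 were used on GRCm38, and DESeq2 is listed too. The sources used here do not give the strand setting, the annotation release or the gene lengths behind the TPM. Both tables hold 49763 entries, 92 of them ERCC spike-ins, which were left out of library sizes and tests.

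Counts were tested with edgeR 4.0.16 in R 4.3.3 (filterByExpr by group, TMM, robust quasi-likelihood fit of all 12 libraries with 1 coefficient per group), with Benjamini-Hochberg adjustment over 15271 genes and a threshold of 0.05. The biological coefficient of variation was 0.292. Contrasts set Kitl_OE against Egfp_OE and shKitl against shCtrl, with their difference, and further Egfp_OE minus shCtrl, and the other pairs of groups for the order of levels. CPM values use the library size times its TMM factor. An exact permutation test of 3 against 3 libraries cannot go below p = 0.1. Lists were described by counts and medians only. Of 49671 gene IDs, 49412 were found in GENCODE M21.

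The members, lists and tests were chosen with earlier results of these data known. Named genes are the 7 members, Kitl, up to 4 called genes of each list with the largest change in Kitl_OE minus Egfp_OE, up to 2 in each of the other comparisons, and the 3 genes most like each member with a mean of at least 1 CPM. Among those most like a member, genes needed a mean of at least 5 CPM. Markers and overlapping genes are named besides, as are further list genes that complete a count, lost a call or did not pass. Replicate numbers were not taken as pairs, since same-numbered samples did not all deviate together. Whether libraries with the same P number deviate together was not checked. Alternatives were other scalings (DESeq2 size factors, library totals, spike-ins), DESeq2 1.42.0, voom and TPM fits with limma 3.58.1 (pseudocounts 1 and 0.1 before log2), other count filters, the replicate block, the P number as covariate, a fit of the compared groups alone, and leaving out each library. List counts under left-out libraries and spike-in scaling, and list genes without Egfp_OE replicate 2, were added after seeing the data.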

Additional observations from a re-analysis of the deposited data

How the results depend on the processing

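Under 24 alternatives for Kitl_OE minus Egfp_OE, Hmga2 was called in all 24 (log2 fold change -3.15 to -2.46) and Lin28b in all 23 that kept it (-8.73 to -0.669, the smallest on log2(TPM + 1)). Members called there fell from 5 to 2 with spike-in scaling and to 3 with either TPM setting, and were 2 to 5 with a library left out. Igf2bp3 was called in none of its 24. Genes called were 5236, 2351 with spike-in scaling and 3501 to 6150 with a library left out. In the knockdown no member was called under any setting run, while genes called went from 0 to 452 with DESeq2, 7 with log2(TPM + 1), 23 with any count and 0 to 277 with a library left out. For Egfp_OE minus shCtrl, 191 genes became 10 (spike-ins, 0 higher and 10 lower, against 78 and 113), 1553 (DESeq2), 307 (limma-voom), 104 (log2(TPM + 0.1)), 349 (any count), 0 (P number), 0 (only the groups compared) and 0 to 771 with a library left out, and members called were 0 to 1. Spike-in scaling moved the median of all genes there from 0.0519 to -0.344, so the sign of Igf2bp1 turned (-0.0807); the P number turned it too (-0.289), and Lin28b (-0.825).

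For the difference of the 2 effects, 2131 genes (622 higher, 1509 lower) became 919 with spike-ins (162 and 757), 1291 with log2(TPM + 1) and 1245 to 2842 with a library left out. Members called there went from 3 to 0 with spike-ins and either TPM setting, and 0 to 3 with a library left out. The difference for Igf2bp3, -0.02, turned positive in 13 of 23 alternatives: 0.0157, 0.0397, 0.0154, 0.0414 (both TPM settings) and 0.016 with size factors, spike-ins, DESeq2, TPM and any count, and 7.03e-05 to 0.165 (0.102, 0.0105, 0.0704, 0.00653 and 0.0533 among them) with a library left out, the range over all 12 being -0.0961 to 0.165. The median of all genes in the difference was -0.0859, 0.0961 with spike-ins and -0.189 with library totals, and in the knockdown 0.0462 and -0.0626 with spike-ins.

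Samples of 1 replicate number had correlations from -0.441 to 0.598, 5 of 9 pairs over 0.1, and 4 of the 9 correlated best with their own number, the 3 pairs of replicate 3 among them. As not every pair was over 0.1, the replicate block is given only here: with it 82 genes differed between the control groups and Igf2bp2 lost its call in the difference (adjusted p = 0.0657), while 5 members stayed called in Kitl_OE minus Egfp_OE. With 3 libraries a group, small changes such as those of the IGF2BP genes lie near the threshold. Counts as low as those of Lin28b limit its fold change.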
